A study of Rattus norvegicus with 4 samples.

Results

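The small leucine-rich proteoglycans are secreted matrix proteins built on a curved core of leucine-rich repeats, and 10 genes of the family were looked for on the arrays: Fmod, Dcn, Bgn, Lum, Ogn, Kera, Aspn, Prelp, Chad and Podn. A gene counted as measured if a probe set named that gene and no other in the platform's annotation. This gave 9 genes with 1 probe set each, among 14557 genes named this way, and Podn was not analysed here. RNA came from fibroblasts of rat tail tendon (Lewis, retired breeders) embedded in gels of type I collagen. The cultures were fed 10% fetal bovine serum for 2 days. They then received a medium with 10% clot releasate of PRP or of PPP, and RNA was taken at 24 hours. General usage gives these abbreviations as platelet-rich and platelet-poor plasma. There were 2 arrays with PRP and 2 with PPP, and all 4 carried cells from the same tissue in the same gel. No untreated arrays were analysed here, so a difference does not show which product moved a gene. Below, fell and rose mean only lower and higher with PRP than with PPP. The labels do not say whether the replicates came from separate animals or cultures, nor who gave the plasma. The p-values thus rest on the spread among 4 arrays alone, part or all of which may be technical.

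These proteins sit on the surface of collagen fibrils, where they set how far fibrils grow in width and how they fuse, and several of them also hold growth factors in the matrix. They are sorted into classes by the spacing of cysteines before the repeats. Class I holds decorin (Dcn), biglycan (Bgn) and asporin (Aspn). Class II holds fibromodulin (Fmod), lumican (Lum), keratocan (Kera) and prolargin (Prelp). Osteoglycin (Ogn) belongs to class III and chondroadherin (Chad) to class IV. Decorin and biglycan carry chondroitin or dermatan sulfate chains and the class II proteins fibromodulin, lumican and keratocan carry keratan sulfate, while asporin, prolargin and chondroadherin are usually found without such chains. In tendon, decorin, biglycan, fibromodulin and lumican are the best studied, and mice that lack both biglycan and fibromodulin have weak tendons that turn partly to bone.

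The family did not respond as a block. With PRP, 3 of the 9 measured genes were lower than with PPP at an adjusted p below 0.05 (limma, adjusted over all 14824 named probe sets): Fmod by 5.38-fold, Ogn by 2.75-fold and Kera by 2.56-fold. Of all named probe sets, 1.02% were called lower. No member was called higher in this fit (0 of 9, where 0.83% of all named probe sets were), and the other 6 did not pass in either direction. At an unadjusted p under 0.05, 6 members were lower and 1, Dcn, was higher, against 7.74% and 8.53% of all named probe sets. Of the members, 7 had a negative log2 difference (PRP minus PPP) and 2, Dcn and Lum, a positive difference. The median log2 difference was -0.61 over the 9 members and -0.0027 over all named probe sets. The members were chosen with earlier results of these data known, so these counts describe the family and are not independent evidence. In every member the PRP and the PPP arrays did not overlap. This was so for 7 of 9 members with PRP lower (77.8%) and 2 of 9 with PRP higher (22.2%), against 22.5% and 23.9% of all named probe sets.

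**Figure D1:**
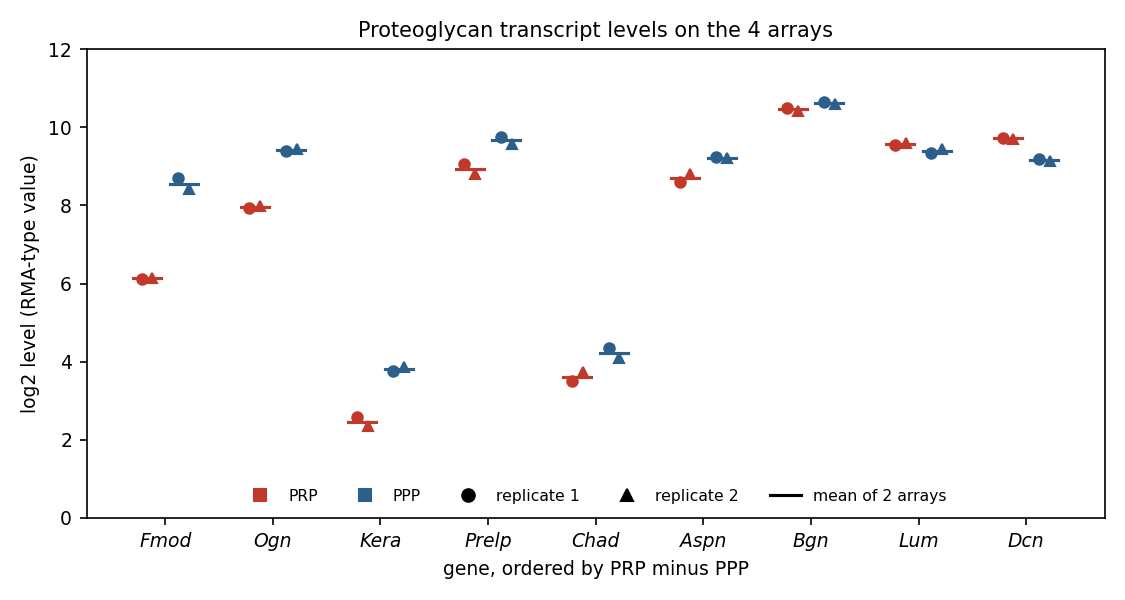
Log2 level (y axis) of the 9 measured genes on each array, with PRP in red on the left of each pair and PPP in blue on the right; circles are replicate 1, triangles replicate 2 and bars the mean of 2 arrays. The groups lie far apart in Fmod, Ogn and Kera and close together in Bgn and Lum; heights of different genes cannot be compared, since each probe set has its own response.

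In class II, Fmod showed the widest gap of the family. It encodes fibromodulin, which binds collagen fibrils early in their assembly and brings the cross-linking enzyme lysyl oxidase to them. Its log2 level was 6.12 and 6.14 on the PRP arrays, against 8.71 and 8.41 on the PPP arrays. The arrays nearest to each other across the treatments were still 2.26 log2 units apart, while the arrays of a treatment differed by 0.022 with PRP and 0.30 with PPP. The log2 difference was -2.43 (SE 0.14, 95% confidence interval -2.76 to -2.09, adjusted p 0.00271 by limma). Among all 14824 named probe sets it ranked 4 from the most negative. With any 1 array left out the adjusted p of Fmod was between 0.0245 and 0.0392. In a fit of all 36685 probe sets, named or not, it was 0.0805 and no member passed.

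Kera encodes keratocan, best known from the cornea, where it helps to keep collagen fibrils evenly spaced. On the log2 scale it stood at 2.58 and 2.34 with PRP, against 3.77 and 3.87 with PPP, and no PRP array reached a PPP array. This gave a log2 difference of -1.36 (SE 0.13, 95% confidence interval -1.67 to -1.04, adjusted p 0.00861 by limma). Kera was the dimmest of the 9 probe sets and the only one of them whose mean over the 4 arrays, 3.14, lay below the median of all probe sets, 3.48. Background could not be told from signal at such a level, and the fold is uncertain to that extent. Its call was lost without PPP replicate 1 (adjusted p 0.0737), PPP replicate 2 (0.0742) or PRP replicate 2 (0.0665).

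Prelp encodes prolargin, which joins basement membranes to the collagen beneath through heparan sulfate. The arrays read 9.05 and 8.80 (log2 level) with PRP, against 9.76 and 9.57 with PPP. The groups were 0.52 log2 units apart at their nearest arrays, with 0.25 between the PRP arrays and 0.19 between the PPP arrays. The log2 difference of -0.74 (SE 0.14) missed the threshold with an adjusted p of 0.0720 by limma. It passed with an intensity trend in the fit (0.00295) and with dim probe sets left out (0.0361).

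Lum encodes lumican, which shares its binding site on collagen with fibromodulin. Lum stood at a log2 level of 9.54 and 9.61 with PRP, against 9.35 and 9.45 with PPP. The gap between the treatments, 0.098 at the nearest arrays, was no wider than that between the PPP arrays, 0.0998. Lum had a log2 difference of 0.18 (SE 0.11, 95% confidence interval -0.09 to 0.45, adjusted p 0.478 by limma). Within class II the intervals therefore ran from wholly negative for Fmod, Kera and Prelp to an interval across 0 for Lum. The difference between these genes was not itself tested.

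Ogn, the class III member, encodes osteoglycin or mimecan, a small protein of connective tissues that also affects the width of collagen fibrils. Its log2 level was 7.94 and 7.998 with PRP, against 9.40 and 9.45 with PPP. The arrays within each treatment agreed within 0.062, and the treatments were 1.41 apart at their nearest arrays. The log2 difference was -1.46 (SE 0.10, 95% confidence interval -1.72 to -1.20, adjusted p 0.00391 by limma). Leaving out any 1 array kept the adjusted p of Ogn between 0.0376 and 0.0445. In the fit of all probe sets its adjusted p was 0.0868.

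In class I none of the 3 genes passed, and their differences pointed different ways. Dcn encodes decorin, which binds fibrils through its core, carries a single chain and holds TGF-beta in the matrix. The log2 level of Dcn was 9.74 and 9.70 with PRP, against 9.18 and 9.13 with PPP. The treatments were 0.52 apart at their nearest arrays and the arrays within a treatment at most 0.051 apart, so the PRP arrays lay clearly above the PPP arrays. Its log2 difference was 0.56 (SE 0.10, 95% confidence interval 0.31 to 0.82), a ratio of 1.48 PRP over PPP, with an adjusted p of 0.0709 by limma. Dcn passed with an intensity trend (0.00102), with dim probe sets left out (0.0282) and with arrays centred on their medians (0.0352). Without any 1 of the arrays its adjusted p was 0.163 to 0.343.

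Bgn encodes biglycan, the close relative of decorin that carries a pair of chains and, when released from the matrix, is a ligand of Toll-like receptors. Its log2 level was 10.51 and 10.43 with PRP, against 10.64 and 10.60 with PPP. The nearest arrays of the treatments were 0.091 apart and the PRP arrays 0.078 apart, so the gap was little wider than the spread. The log2 difference was -0.15 (SE 0.11, 95% confidence interval -0.41 to 0.11, adjusted p 0.544 by limma). Aspn encodes asporin, which carries a run of aspartates in place of chains and competes with decorin for collagen. Aspn had log2 levels of 8.61 and 8.81 with PRP, against 9.23 and 9.22 with PPP. The PPP arrays agreed within 0.0058, the PRP arrays differed by 0.20, and both PRP arrays were below both PPP arrays. For Aspn the log2 difference was -0.51 (SE 0.12, adjusted p 0.120 by limma), and it passed with an intensity trend (0.00720).

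Chad, the class IV member, encodes chondroadherin, a cartilage protein that binds cells through an integrin. Its log2 level was 3.49 and 3.73 with PRP, against 4.34 and 4.10 with PPP, so both PRP arrays were lower by a margin of 0.37, wider than the 0.24 within either treatment. The log2 difference was -0.61 (SE 0.14, adjusted p 0.125 by limma). Only Kera was dimmer among the 9 probe sets, and Chad did not pass in any of the alternative fits (adjusted p 0.0626 to 0.458).

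**Figure D2:**
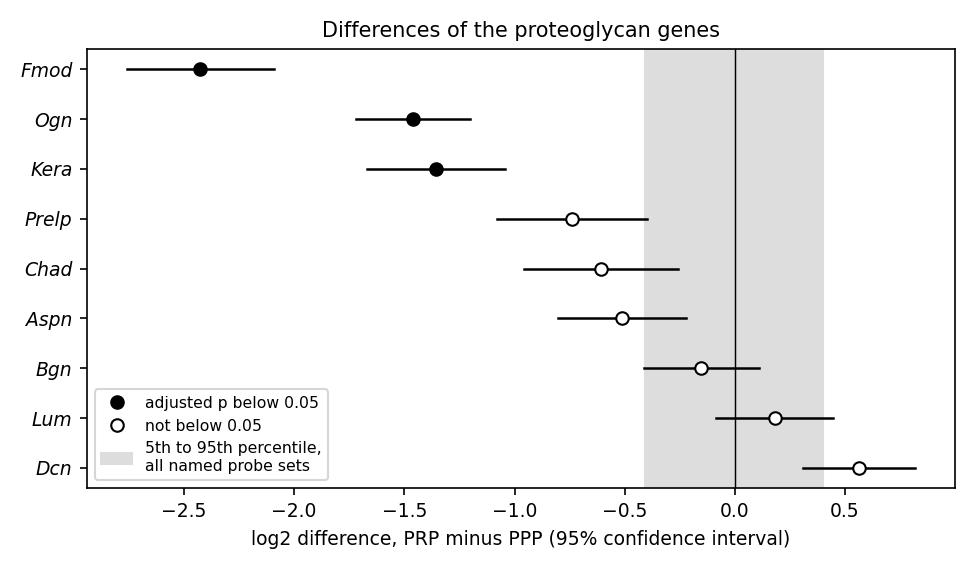
Log2 difference, PRP minus PPP, of each gene (x axis) with its 95% confidence interval from limma; filled points have an adjusted p below 0.05 and the grey band spans the 5th to the 95th percentile of all named probe sets (-0.41 to 0.40). From Fmod at the top to Aspn, 6 genes lie left of the band, Bgn and Lum lie inside it and Dcn lies right of it.

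Most of these genes lie in clusters, and the gene order was read from the RefSeq annotation of assembly GRCr8. The build behind the array is not given in the sources used here, so the annotation served only to say which genes neighbour each other. Genes were ordered by start coordinate alone. A flanking gene is thus the next measured gene in that order, and whether it overlaps the cluster was not examined. On chromosome 13 Prelp and Fmod are adjacent, next to Optc, which had no value here. Both had negative log2 differences, -0.74 and -2.43. The nearest measured genes outside them, Lax1 and Chit1, had -0.34 and -0.11 (adjusted p 0.255 and 0.743 by limma) at low levels. On chromosome 17 the order is Ogn, Omd, Aspn. Omd encodes osteomodulin, a class II protein known from bone, and its log2 level was 4.15 and 4.38 with PRP, against 5.09 and 5.18 with PPP. Omd fell by 0.88 log2 units (SE 0.13) with an adjusted p of 0.0340 by limma. The call of Omd was lost with any 1 array left out (0.104 to 0.214) and with a replicate block (0.0760). The 3 neighbours thus had differences of -1.46, -0.88 and -0.51, while the flanking genes Cenpp and Ippk had 0.33 and 0.12 (adjusted p 0.242 and 0.722 by limma). Between Aspn and the family gene Ecm2, which had no value here, lies Rpl6-ps6, with -0.08 (adjusted p 0.914 by limma).

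The cluster on chromosome 7 did not share a direction. Its order is Dcn, Lum, Kera, Epyc, with log2 differences of 0.56, 0.18, -1.36 and -0.17. Kera alone passed. The 95% confidence interval of Dcn (0.31 to 0.82) and that of Kera (-1.67 to -1.04) did not meet, although only Lum lies between these genes. Epyc, the gene of epiphycan, a cartilage protein, was dim, at log2 2.58 with PRP and 2.74 with PPP. Btg1, which flanks Dcn, had a difference of 0.63 (adjusted p 0.0974) and Ccer1, beyond Epyc, -0.14 (adjusted p 0.674, both by limma). Bgn on chromosome X and Chad on chromosome 10 have no neighbour of the family.

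**Figure D3:**
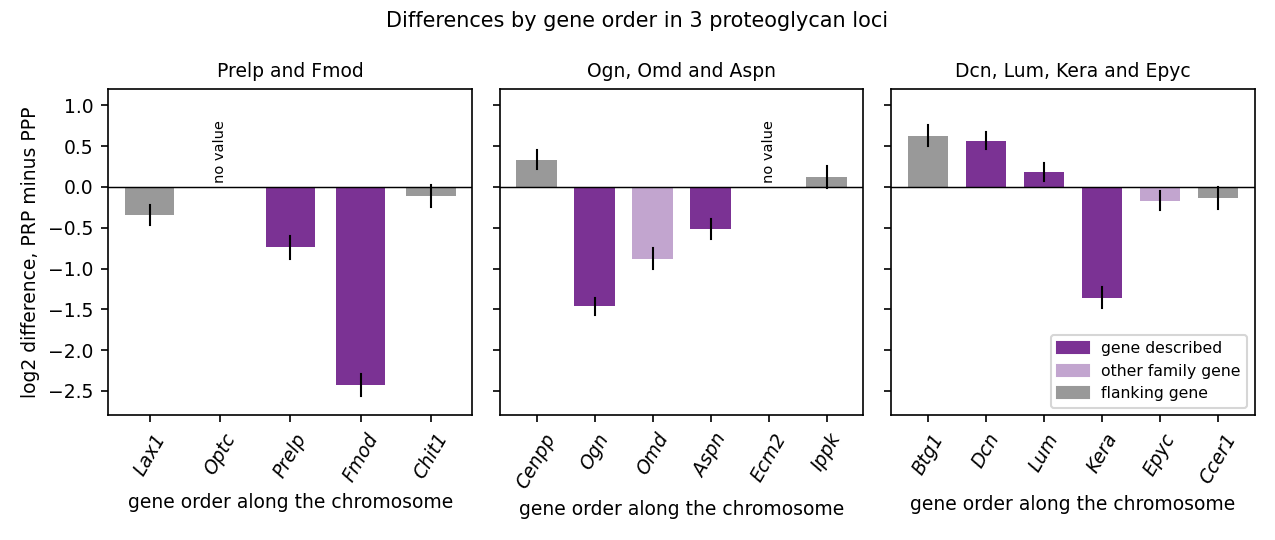
Log2 difference, PRP minus PPP (y axis), of the genes of 3 clusters in chromosome order, with bars of 1 SE from limma either way; dark purple marks the genes described, light purple other family genes and grey the nearest measured flanking genes. The measured family genes are all negative in the clusters of Fmod and Ogn, and go from positive (Dcn, 0.56) to negative (Kera, -1.36) in the third. Rpl6-ps6, which lies between Aspn and Ecm2, is not drawn.

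The promoters of the 3 genes that fell are printed with that of Lum, the neighbour of Kera that did not pass, so that genes of different response can be set side by side. Each is the 250 bases before the annotated start, from RefSeq on GRCr8, given 5′ to 3′ on the gene's strand, and 6 of the 9 members had an entry. Capitals mark matches on either strand to 4 motifs: the E-box CANNTG, which basic helix-loop-helix factors such as scleraxis bind, the SMAD box CAGAC of TGF-beta signalling, the AP-1 site TGANTCA and the TATA box TATAAA.
Fmod, chr13:48045317-48045566, plus strand: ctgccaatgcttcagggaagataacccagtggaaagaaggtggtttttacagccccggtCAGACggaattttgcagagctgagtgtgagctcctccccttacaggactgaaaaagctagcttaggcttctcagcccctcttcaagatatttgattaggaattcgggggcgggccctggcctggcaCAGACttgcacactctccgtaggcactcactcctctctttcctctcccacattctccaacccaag
Ogn, chr17:15258996-15259245, minus strand: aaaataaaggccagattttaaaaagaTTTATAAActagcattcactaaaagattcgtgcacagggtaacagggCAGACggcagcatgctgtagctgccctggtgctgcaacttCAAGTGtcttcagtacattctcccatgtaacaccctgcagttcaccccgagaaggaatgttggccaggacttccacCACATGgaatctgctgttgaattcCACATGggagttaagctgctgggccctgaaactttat
Kera, chr7:34283850-34284099, plus strand: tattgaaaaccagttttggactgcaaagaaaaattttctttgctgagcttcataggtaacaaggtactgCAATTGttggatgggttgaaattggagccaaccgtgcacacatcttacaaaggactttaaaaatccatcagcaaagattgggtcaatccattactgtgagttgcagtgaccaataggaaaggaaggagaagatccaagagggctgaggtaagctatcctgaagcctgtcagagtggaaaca
Lum, chr7:34245456-34245705, plus strand: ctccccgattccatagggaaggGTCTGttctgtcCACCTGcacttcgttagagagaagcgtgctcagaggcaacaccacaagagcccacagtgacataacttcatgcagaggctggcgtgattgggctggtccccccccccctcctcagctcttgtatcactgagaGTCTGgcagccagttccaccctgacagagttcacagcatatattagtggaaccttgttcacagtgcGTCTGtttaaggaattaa

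Fmod held 2 SMAD boxes and 0 E-boxes. Ogn held 3 E-boxes, 1 SMAD box and a TATA box matched on both strands in overlapping letters. Kera held 1 E-box and Lum 1 E-box and 3 SMAD boxes. An E-box was present in 5 of 6 members with an entry and in 65.5% of all 33469 promoter entries. A SMAD box was present in 3 of 6, against 42.9% of all entries, a TATA box in 2 of 6, against 12.9%, and an AP-1 site in 0 of 6, against 6.34%. The TATA matches lay 224 to 217 bases before the start of Ogn and 29 to 24 bases before that of Chad. A SMAD box thus stood before Fmod, Ogn and Lum, and an E-box before Ogn, Kera and Lum. A match is a description of letters and not a bound site.

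By a measure of likeness over the 4 arrays, the Euclidean distance between profiles centred on their own means, the genes nearest to Fmod were Jag1, a ligand of Notch receptors (distance 0.305 log2 units), C1qtnf3, a secreted relative of complement C1q (0.334), and Aoc3, a cell-surface amine oxidase (0.365). Their log2 differences were -2.17, -2.68 and -2.07, beside -2.43 for Fmod. Nearest to Ogn were Prss23, a secreted serine protease, Nrep and Itgbl1, at distances of 0.122 to 0.152 and with log2 differences of -1.54, -1.54 and -1.54. Nearest to Dcn were Ern1, a sensor of unfolded proteins in the endoplasmic reticulum, Or2t48e, an olfactory receptor gene at a low level, and Enpp3, an ectonucleotidase, at distances of 0.019 to 0.0251. Their log2 differences were 0.56, 0.54 and 0.57, and like Dcn they did not pass (adjusted p 0.0677 to 0.0789 by limma). With 4 arrays such a likeness rests mostly on the treatment difference itself.

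The other genes of the family and of the matrix they work in were read from lists. Besides Omd, 4 further family genes were measured (Tsku, Chadl, Epyc and Nyx) and did not pass, and all 5 had negative differences with a median of -0.35. The list of fibril collagens, which also holds Col14a1, Col6a1 and Col6a2, had a median log2 difference of -0.53: 9 of 9 measured genes were negative, 2 fell and 0 rose. Col11a1, a minor fibrillar collagen that starts fibrils, had a log2 level of 6.13 and 6.24 with PRP, against 7.61 and 7.45 with PPP, and was 2.55-fold lower (adjusted p 0.00717 by limma). Col5a3, a chain of type V collagen, was 2.04-fold lower, with 4.298 and 4.33 with PRP against 5.52 and 5.17 with PPP (adjusted p 0.0322 by limma). Both PRP arrays were below both PPP arrays in each of these collagens. Col11a1 missed the threshold when PPP replicate 1 or a PRP array was left out (up to 0.0656), and Col5a3 when any array was (0.0572 to 0.190). With an intensity trend 8 of the 9 collagens fell, in a fit that called 364 of all 14824 named probe sets lower.

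The enzymes that build the sugar chains showed no called gene. Of 20 measured genes of the linker and of chondroitin and dermatan sulfate chains, limma called 0 at an adjusted p of 0.05 (3 lower and 0 higher at an unadjusted p under 0.05). The smallest p values belonged to Xylt2, a xylosyltransferase that starts the chains (log2 difference -0.45, SE 0.15, adjusted p 0.238), and Chst14, which sulfates dermatan (-0.41, SE 0.16, adjusted p 0.278). Of 10 measured genes of keratan sulfate chains 0 were called (2 lower and 2 higher unadjusted), and those nearest were B3gnt2 (-0.42, adjusted p 0.191) and Chst2 (0.36, adjusted p 0.235, all by limma). The medians of these lists were -0.16 and -0.10. Among 11 measured cross-linking enzymes and fibril-associated proteins 0 were called as well (2 lower and 0 higher unadjusted). Loxl2, a lysyl oxidase, had -0.70 (adjusted p 0.102) and Fbn1, fibrillin 1, -0.38 (adjusted p 0.167), and Lox, the partner of fibromodulin, had 0.07 (SE 0.10, adjusted p 0.814, all by limma). With an intensity trend Loxl2 and Fbn1 passed (0.0129 and 0.0143).

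Of 13 measured proteases that process the proteoglycans or can cut them, 3 rose and 0 fell. Mmp3, stromelysin 1, which cuts several of these proteins, had a log2 level of 9.58 and 9.59 with PRP, against 6.28 and 6.59 with PPP, and was 8.87-fold higher. Mmp9, a gelatinase, was 5.35-fold higher, with 5.57 and 5.53 with PRP against 3.13 and 3.13 with PPP, where both PPP arrays held the same value. That PPP level lay below the median of all probe sets, so background could not be told from signal there and the fold of Mmp9 is uncertain to that extent. Mmp13, a collagenase reported to cut fibromodulin, was 2.75-fold higher. Their adjusted p was 0.00122, 0.00122 and 0.00927 by limma, and for Mmp13 it reached 0.0723 with PPP replicate 1 or a PRP array left out, which ended its call. The other 10 proteases did not pass, among them Adamts5, an aggrecanase, with a log2 difference of -0.08 (adjusted p 0.798 by limma), and the median of the list was -0.04. These are transcripts, and no cleavage was measured.

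Among 17 measured ligands and receptors that the proteoglycans bind, 1 fell and 1 rose. Tgfb3, a TGF-beta that small proteoglycans hold, had a log2 level of 8.21 and 8.05 with PRP, against 9.34 and 9.37 with PPP, and was 2.33-fold lower (adjusted p 0.00835 by limma). For Tgfb1 the log2 difference was -0.26 (adjusted p 0.372). Tlr2, a Toll-like receptor for which free biglycan is a ligand, had 5.35 and 5.01 with PRP, against 3.68 and 3.68 with PPP, and was 2.84-fold higher (adjusted p 0.00876). Its partner in that role, Tlr4, had 0.52 and did not pass (adjusted p 0.215, all by limma). In a list of 11 measured genes of the TGF-beta pathway, Tgfb3 fell and Tgif1, a corepressor of SMAD signalling, rose by 0.72 (SE 0.10, adjusted p 0.0340). Among these calls, Tgfb3 did not pass when a PPP array or PRP replicate 2 was left out (up to 0.0741), Tlr2 when a PPP array was (up to 0.0877) and Tgif1 when any array was (up to 0.232).

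**Figure D4:**
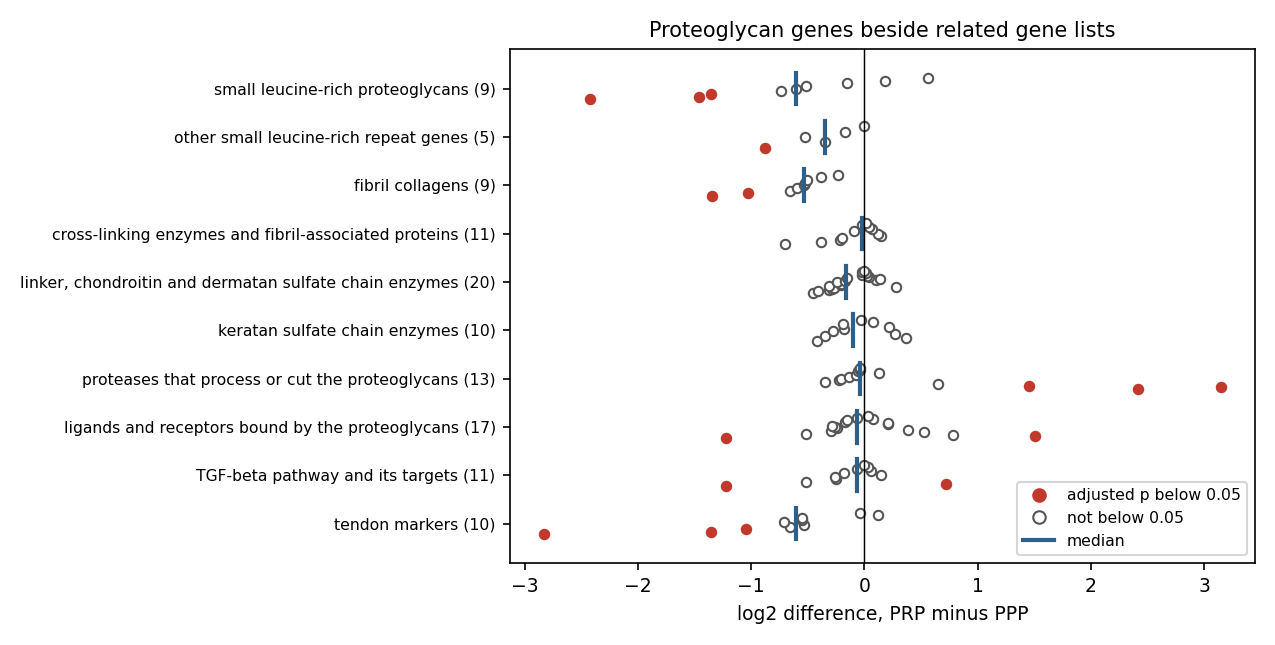
Log2 difference, PRP minus PPP (x axis), of every measured gene of the proteoglycan family and of 9 related lists, with the number of genes in brackets; red points have an adjusted p below 0.05 by limma, open points do not, and blue bars are list medians. The medians are lowest in the proteoglycans (-0.61), the tendon markers (-0.60) and the fibril collagens (-0.53), and the 2 points farthest to the right are Mmp3 and Mmp9.

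The tissue label was checked against markers. Of 10 measured tendon markers 9 had a mean over the 4 arrays above the median of all probe sets, 3.479. Among them were Scx (log2 6.22 with PRP and 6.77 with PPP) and Mkx (6.57 with PRP and 7.12 with PPP). Cilp (3.43 with PRP and 6.26 with PPP) and Tnmd (3.11 with PRP and 4.46 with PPP) were above that median only with PPP. Background could not be told from signal at their PRP levels. Of all 14824 named probe sets, 8540 were above that median. Markers of other tissues were above it too: 3 of 5 for bone, 3 of 6 for muscle, 2 of 3 for platelets, 2 of 5 for adipocytes, 2 of 8 for leukocytes, 1 of 5 for cartilage (Acan, 5.49 with PRP and 5.82 with PPP) and 1 of 4 for endothelium (Tek, 4.63 with PRP and 3.94 with PPP). The bone marker Alpl, counted here, was above it only with PPP (3.37 with PRP and 4.24 with PPP). Of the tendon markers 3 of 10 fell (Cilp, Tnmd and Egr2) and 7 did not pass. At an unadjusted p under 0.05 by limma 8 were lower and 0 higher. The log2 difference was negative in 9 of 10 and positive only in Thbs4, at 0.12. With an intensity trend 7 tendon markers fell, and in the fit of all probe sets 0 did. Their summed level, on the linear scale, was 2692 on both PRP arrays, against 4034 and 3616 on the PPP arrays. Most of that sum belongs to Col1a2, Col1a1 and Thbs4, none of which passed, and the sum of the other 7 was 399.7 and 383.2 with PRP, against 725.5 and 640.3 with PPP. In bulk RNA, fewer cells of a type and less RNA per cell cannot be told apart.

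Of 8 leukocyte markers limma called 0 (2 lower and 1 higher at an unadjusted p under 0.05), and 6 had negative differences. Tyrobp, an adaptor of myeloid receptors, had a log2 difference of -0.87 (adjusted p 0.0559 by limma). It passed with an intensity trend (0.0271), median centring (0.0196) and cyclic loess (0.0395), and reached 0.272 with all probe sets. Lyz2, a lysozyme of myeloid cells, had -0.45 (adjusted p 0.298 by limma). The summed level was 144.7 to 149.7 with PRP and 129.6 to 140.1 with PPP, but without Cd14, the brightest, it was 46.83 to 47.11 with PRP and 52.32 to 62.61 with PPP. Of 5 cartilage markers 0 were called (1 lower and 0 higher unadjusted), with -0.30 for Matn3 (adjusted p 0.287) and -0.33 for Acan (0.373, both by limma). Their sum was 71.5 to 82.17 with PRP and 88.86 to 89.45 with PPP. Without Acan the sums overlapped, at 30.65 to 32.5 with PRP and 31.66 to 34.01 with PPP. Of 5 bone markers Alpl fell by 0.87 log2 units (adjusted p 0.0281), Ibsp had -0.44 (0.252, both by limma), and the sum was 92.64 to 100.5 with PRP and 117.2 to 130.2 with PPP. Of 5 adipocyte markers Fabp4 and Lpl were higher, and the sum was 267.3 to 287.2 with PRP and 135.2 to 155.7 with PPP. Cidec, Plin1 and Adipoq had -0.28, -0.05 and 0.02 and did not pass. Without Lpl, Fabp4 and Plin1 the sum was 11.39 to 14.29 with PRP and 13.77 to 14.04 with PPP. Of 6 muscle markers Acta1 fell and Myh4 had 0.22 (adjusted p 0.620 by limma). The sum was 130.1 to 130.3 with PRP and 184.5 to 208.0 with PPP. Without Acta1 the sums overlapped, at 70.82 to 75.53 with PRP and 62.76 to 79.13 with PPP. Of 3 platelet markers Pf4 rose and Ppbp had -0.16 (adjusted p 0.765 by limma). The sum was 72.46 to 75.93 with PRP and 37.73 to 46.0 with PPP. Without Pf4 the sums overlapped, at 26.88 to 29.28 with PRP and 25.97 to 32.18 with PPP. Of 4 endothelial markers 0 were called (0 lower and 1 higher unadjusted), with 0.68 for Tek (adjusted p 0.122) and 0.22 for Vwf (0.427, both by limma). Their sum was 40.76 to 45.67 with PRP and 30.47 to 35.47 with PPP. Without Tek the sums overlapped, at 17.75 to 19.14 with PRP and 16.86 to 18.05 with PPP. Of the called markers, Cilp and Pf4 passed whichever array was left out, and the highest adjusted p of those that did not was 0.0742 for Tnmd, 0.212 for Egr2, 0.202 for Alpl, 0.0834 for Fabp4, 0.257 for Lpl and 0.237 for Acta1. The part of any of these in the differences of the proteoglycans was not tested.

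Over all named probe sets 151 were called lower and 123 higher. With the arrays centred on their medians 189 were lower and 283 higher, a setting that moved all differences by 0.067 and turned no member's direction. Arrays of a treatment correlated across named probe sets at 0.9954 (PRP) and 0.9939 (PPP), and arrays of different treatments at 0.9873 to 0.9900. Probe sets are not independent replicates.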

How the data were processed

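The deposited table holds a log2 value for 36685 probe sets on each of 4 arrays. Per the submitters' processing notes the authors used oligo, RMA and limma, with no version, role or order given, and the deposited log2 values have the form RMA gives: background-corrected, with near-equal distributions, and summarised per probe set. Such values hide a change in total RNA. Per the labels' protocols, amplification started from 15 ng of RNA, and biotin was put on 3 ug of the product. The genome build is not given in the sources used here. Scanner files were not used, so background could not be told from a low signal. The number of arrays limits the precision.

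The platform's annotation gave 14824 probe sets a single gene symbol, 829 several, and left 21032 unnamed. The comparison, PRP against PPP, was fitted in R 4.3.3 with limma 3.58.1 (lmFit, then eBayes without a trend; two-sided, 2 residual and 3.865 prior degrees of freedom), with Benjamini-Hochberg adjustment over the 14824 and a threshold of 0.05; the procedure was tested on simulated data. Genes with several probe sets were represented in lists by the brightest.

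The members, the 16 gene lists and the rules were chosen with earlier results of these data known. The genes named were all members, up to 6 called genes of each list or, where fewer than 2 were called, the 2 with the smallest p, and the 3 genes nearest to Fmod, Ogn and Dcn. Other list genes (such as Lox, Adamts5, Tgfb1, Tlr4, Scx, Mkx, Thbs4 and Cd14) and the flanking genes were named after their values were seen. The alternatives were an intensity trend, all probe sets, dim probe sets left out (mean at or below the median of all, 3.479), median centring, cyclic loess, a replicate block, 1 probe set per gene and each array left out. Same-numbered arrays deviated from their group means without relation (correlation 0.00564 across probe sets), so the numbers were not taken to pair them.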

Additional observations from a re-analysis of the deposited data

How the results depend on the processing

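The directions of the 9 members held in every alternative that tested them, but the calls depended on the setting. An intensity trend called 5 members lower (Fmod, Kera, Ogn, Prelp and Aspn) and 1 higher (Dcn), with 364 named probe sets lower and 444 higher. A fit of all 36685 probe sets called 0 members lower, and 0 probe sets lower and 2 higher (3941 at an unadjusted p under 0.05); it adjusts over more probe sets and had 2.438 prior degrees of freedom, against 3.865. Leaving out dim probe sets called 3 members lower (Fmod, Ogn and Prelp, with Kera not tested) and 1 higher (Dcn), with 257 and 251 probe sets. Median centring called Dcn as the 1 higher member and 283 probe sets higher. A replicate block called the same 3 members lower (adjusted p 0.0220 for Fmod, 0.0277 for Ogn and 0.0440 for Kera), with 72 probe sets lower and 51 higher. It ended the calls of Omd (0.0760), Col5a3 (0.0843) and Tgif1 (0.102) among the genes named, and of the markers Egr2 (0.127), Alpl (0.0910), Lpl (0.122) and Acta1 (0.0668). With 1 array left out, 2 to 3 members were called lower and 0 higher, and 26 to 46 probe sets lower and 30 to 35 higher; the lone array of a treatment is then assumed to vary like the others, with 1 residual degree of freedom. Cyclic loess and 1 probe set per gene changed no member's call. Where not stated otherwise, the cause of a change was not tested. Of 352 counts over the gene lists in these alternatives, 287 stayed within 1.5 times, where 0 in both fits counted as staying. Most list counts were 0 in the main fit, so this share says little about how stable the calls were.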
